A study of Mus musculus with 67 samples.

Results

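The 37 genes of the mouse mitochondrial genome were followed across 67 single vascular smooth muscle cells, 45 at passage 2 and 22 at passage 1. They are the 37 of 39179 gene rows whose symbol starts with mt-, namely 13 mRNA, 2 rRNA and 22 tRNA genes. That rule uses no measured value, but it was set with earlier results of these data known. The cells came from the descending aorta of male C57Bl6 mice aged 3 to 4 months and carried no engineered allele. Cells at both passages had been grown from freshly isolated aortic cells in medium with 10% serum and 1% antibiotics. Passage 2 cells were subcultured from the passage 1 cells, which had been left for 5 days before trypsin was applied. The labels name neither the animals nor the culture wells, so each passage is 1 sample, and the differences between passages below describe these cells and carry no test.

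Mitochondrial DNA is a small circle that encodes subunits of the respiratory chain together with the ribosomal and transfer RNAs needed to translate them. Both strands are transcribed as long precursors, and the tRNAs that lie between most of the other genes are cut out to release the mRNAs and rRNAs. All other proteins of the respiratory chain, and those that copy, transcribe, process and translate the mitochondrial genome, are encoded in the nucleus.

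Passage 2 libraries held 548419 to 1509589 reads per cell (median 885194), against 817021 to 1561129 at passage 1 (median 1227270). The mitochondrial genes took 9854 to 127791 of these reads in a passage 2 cell (median 40845) and 35815 to 93569 in a passage 1 cell (median 65350.5). Smooth muscle markers (at least 3 of 10 at a normalized count of 10) were present in 45 of 45 passage 2 cells and 19 of 22 passage 1 cells. At least 3 of 10 endothelial markers did so in 2 of 45 and 5 of 22 cells, and at least 3 of 10 fibroblast markers in 19 of 45 and 15 of 22. At least 3 of 6 macrophage markers did so in 0 of 45 cells, which allows a share of up to 6.67%, and in 0 of 22, which allows up to 13.6%. A count of 10 for the proliferation genes Mki67 or Top2a was found in 10 of 45 passage 2 and 16 of 22 passage 1 cells.

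The mitochondrial share of reads had close centres at the passages and a wider spread at passage 2. It was 1.54% in the lowest, 5.01% in the median and 12.1% in the highest of 45 passage 2 cells. At passage 1 the lowest, median and highest of 22 cells were 3.97%, 5.37% and 7.22%. The ranges overlapped, and the passage 2 cell had the higher share in 43.1% of all pairs of 1 passage 2 and 1 passage 1 cell. Means were 5.28 ± 2.01% (SD, n = 45) and 5.42 ± 0.812% (SD, n = 22), so the SD at passage 2 was 2.48 times that at passage 1. The coefficient of variation (CV, the SD over the mean) was 38.1% at passage 2 and 14.99% at passage 1. Counting error was small beside this spread, with a median counting SD of 0.0225 percentage points per passage 2 cell and 0.0203 per passage 1 cell. Counting error is all that this SD and the intervals below cover, since the libraries carry no stated molecular identifiers.

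**Figure D1:**
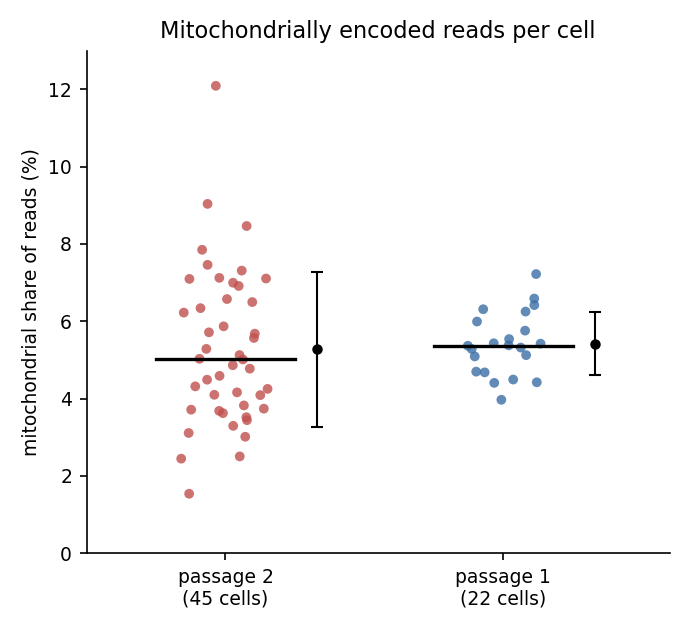
Mitochondrial share of reads in each cell (points, % of all reads), passage 2 on the left and passage 1 on the right, with the median as a horizontal line and mean ± SD beside it. Of the passage 2 cells, 13 lie below the lowest and 6 above the highest passage 1 cell.

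At passage 2, 26 of 45 cells fell within the passage 1 range, 13 lay below it and 6 above. That range rests on only 22 cells, and a range tends to widen with more cells. Shares under 3% were found in 3 passage 2 cells and in 0 of 22 passage 1 cells, and shares over 8% in 3 passage 2 cells and in 0 of 22 passage 1 cells. A count of 0 of 22 allows a share of up to 13.6% of cells. Passage 2 cell 11 had the highest share, 12.1% (Wilson 95% interval 12.02% to 12.17%). It also had 7 of 10 endothelial and 6 of 10 smooth muscle markers at a value of 10. Passage 2 cell 32 had the lowest share, 1.54% (1.51% to 1.57%), and had a proliferation marker. Both were among the smaller libraries, with 687454 reads in cell 11 and 640770 in cell 32, against a passage 2 median of 885194. Without cell 11 the CV at passage 2 was 33.99%. The part that cell type and proliferation markers play in the spread was not tested. Shares of the passage 2 cells with endothelial markers were 4.32% and 12.1%, and those of the 5 passage 1 cells with them lay between 4.41% and 6.31%. Cells with a proliferation marker had shares of 1.54% to 8.47% at passage 2 and of 3.97% to 7.22% at passage 1.

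Across the cells of a passage the share correlated weakly with depth. Its Spearman correlation with reads per cell was 0.28 at passage 2 (n = 45) and 0.20 at passage 1 (n = 22). With the number of genes detected it was -0.05 and 0.07. With the share of nuclear reads in nuclear respiratory chain genes it was -0.18 at passage 2 and 0.13 at passage 1. With that in glycolytic genes it was -0.33 and 0.13. All of these are descriptions over cells of 1 sample per passage, and both measures of a pair come from the same library.

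Levels of single genes are given as the authors' normalized counts (reads divided by 1 size factor per cell). A gene was measured where its mean reached 10 in a passage and at least 25% of that passage's cells had a read. By that filter 16 of the 37 genes were kept, namely 12 mRNAs, both rRNAs and the tRNA genes mt-Ts1 and mt-Te. The mRNA mt-Nd4l and 20 tRNA genes were not, and mt-Te passed through its passage 2 mean only. The log2 ratio is taken between the passages' mean normalized counts after adding 1 to each, passage 2 over passage 1, so that low genes appear closer together than they are. None of the 16 reached a 2-fold difference in either direction, where 14.4% of the 8682 genes measured were at least 2-fold higher at passage 2 and 19.4% at least 2-fold lower. Of the 16, 12 had a log2 ratio above 0 and 4 below it, where 45.3% of all genes measured lay above 0. Scaled to CPM of all reads, the split was 10 above and 6 below, and with edgeR's TMM scaling 13 above and 3 below. The ratios ran from -0.21 to 0.57 with a median of 0.19, and the median of all measured genes was -0.11.

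Complex I, which takes electrons from NADH into the chain, has 7 mitochondrially encoded subunits. Its gene mt-Nd4 had a normalized count of 530 in the lowest, 1634 in the median and 5107 in the highest passage 2 cell, and of 619, 1254 and 2218 in passage 1 cells. The groups overlapped, and mt-Nd4 averaged 1972 ± 1105 (SD, n = 45) at passage 2 and 1335 ± 406 (SD, n = 22) at passage 1, a log2 ratio of 0.56. The passage 2 cell was the higher in 68.2% of pairs, and none of the 16 genes reached 70%, a mark that 3.08% of all genes reached. None of the 16 was at or below 30% of pairs either, where 34.9% of all genes were. The subunit gene mt-Nd1 averaged 3719 ± 1975 and 4301 ± 1214, a log2 ratio of -0.21, with 739, 3449 and 11302 in the lowest, median and highest passage 2 cell and 2476, 4103 and 7228 at passage 1. The other complex I genes had log2 ratios of 0.24 for mt-Nd2, 0.28 for mt-Nd3, 0.07 for mt-Nd5 and 0.35 for mt-Nd6. For mt-Nd5 the sign turned in 5 of 13 alternative treatments. Among the mRNA genes mt-Nd6 alone is encoded on the minus strand, and it averaged 373 ± 245 at passage 2 and 292 ± 102 at passage 1.

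Cytochrome b, encoded by mt-Cytb, is the one mitochondrially encoded subunit of complex III, which passes electrons on to cytochrome c. It had 1873, 6070 and 13536 normalized counts in the lowest, median and highest passage 2 cell and 3518, 5322 and 9349 at passage 1, with a log2 ratio of 0.26. Complex IV reduces oxygen, and its catalytic core comes from mt-Co1, mt-Co2 and mt-Co3. Their log2 ratios were 0.13, -0.18 and -0.09. The mt-Co3 gene ranged from 1987 through a median of 7188 to 22962 normalized counts at passage 2, and from 5339 through 9556 to 13187 at passage 1. The lowest and the highest cells were both at passage 2, which had more cells. The sign of mt-Co3 turned with TMM scaling, where its log2 ratio was 0.05. That of mt-Co1 turned in 2 of 13 alternative treatments, down to -0.17. The ATP synthase genes mt-Atp6 and mt-Atp8, which encode membrane subunits of complex V, had log2 ratios of 0.27 and 0.09, and the sign of mt-Atp8 turned in 2 of 13 alternatives, down to -0.01. The mt-Atp6 gene had 1792, 6349 and 13191 normalized counts in the lowest, median and highest passage 2 cell and 4108, 5291 and 9450 at passage 1.

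The rRNAs of the mitochondrial ribosome are mt-Rnr1, of the small subunit, and mt-Rnr2, of the large one. Normalized counts of mt-Rnr2 were 1214, 4499 and 13360 in the lowest, median and highest passage 2 cell and 3816, 5166 and 8370 at passage 1. Its means were 4821 ± 2509 (SD, n = 45) and 5475 ± 1156 (SD, n = 22), a log2 ratio of -0.18. The mt-Rnr1 gene averaged 429 ± 305 and 389 ± 116, a log2 ratio of 0.14 whose sign turned when medians replaced means (-0.21). Each cell had 12.9 ± 4.67 reads of mt-Rnr2 per read of mt-Rnr1 at passage 2 and 14.9 ± 3.75 at passage 1, although both rRNAs come from 1 precursor and the mt-Rnr2 gene is 1582 bases long and mt-Rnr1 955.

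Levels of different genes were compared per kilobase of gene length. At passage 2 mt-Co3 stood first with 10989 normalized counts per kilobase, then mt-Atp6 with 9905, mt-Atp8 with 6577, mt-Cytb with 5743, mt-Co2 with 4666, mt-Co1 with 3992, mt-Nd1 with 3887 and mt-Rnr2 with 3047. A step followed to mt-Nd4 with 1431, mt-Nd2 with 1153, mt-Nd5 with 810, mt-Nd6 with 719, mt-Nd3 with 521 and mt-Rnr1 with 450 per kilobase, and mt-Nd4l came last with 25.7. The step between mt-Rnr2 and mt-Nd4 held in 45 of 45 passage 2 cells, as did those from mt-Atp6 to mt-Atp8 and from mt-Rnr1 to mt-Nd4l. Other neighbours changed places in some cells. The order held in 39 of 45 cells for mt-Cytb above mt-Co2 and in 37 for mt-Nd4 above mt-Nd2, but in only 27 for mt-Co1 above mt-Nd1, 28 for mt-Nd5 above mt-Nd6 and 30 for mt-Co3 above mt-Atp6. The SD between cells was larger than each of these differences of means. At passage 1 the first 3 genes were the same, with 11681 per kilobase for mt-Co3, 8217 for mt-Atp6 and 6184 for mt-Atp8. There mt-Nd2 had 974 and mt-Nd4 969 per kilobase, but mt-Nd2 was the higher in only 7 of 22 cells. Where reads fall along a gene is not given by the table, so a difference per kilobase may include uneven coverage.

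Among 15 mitochondrial genes with a mean of at least 100 at both passages, the CV was larger at passage 2 in all 15, where 82.6% of the 1325 genes at such levels had a larger CV at passage 2. It was at least 1.5 times larger for 11 of the 15, against 33.7% of the 1325. The median CV of the 15 was 50.6% at passage 2 and 29.7% at passage 1, and that of the 1325 genes was 96.3% and 72.5%. Nuclear genes with means of at least 1000 at both passages numbered 59, and their median CV was 57.0% at passage 2 and 48.6% at passage 1, with a larger CV at passage 2 in 42. The 11 mitochondrial genes at that level had median CVs of 50.6% and 28.2%. The ratio of the passage 2 CV to the passage 1 CV was 2.46 for mt-Rnr2, 2.39 for mt-Rnr1, 2.07 for mt-Co2 and 2.01 for mt-Co3. It was 1.12 for mt-Nd2 and 1.02 for mt-Nd3.

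**Figure D2:**
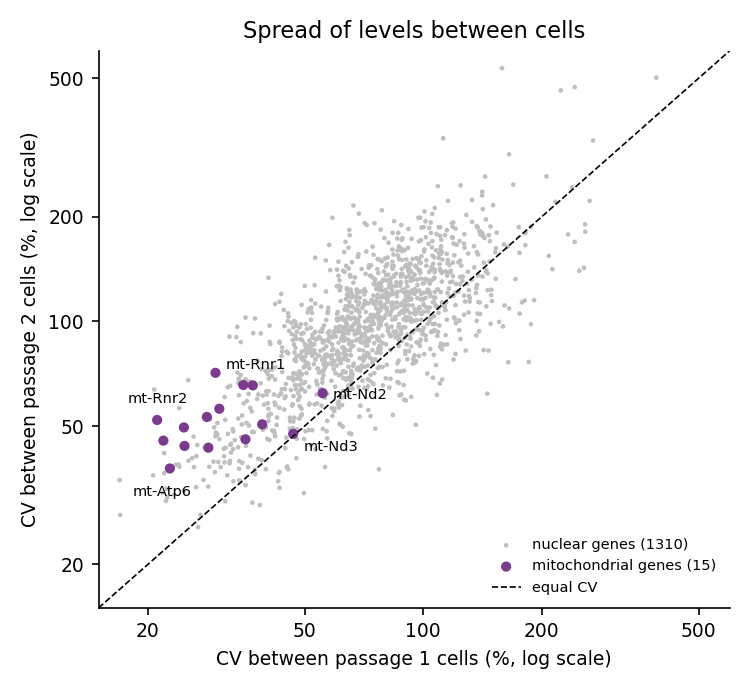
CV of the normalized count between passage 2 cells (vertical, %, log scale) against that between passage 1 cells (horizontal, %, log scale) for genes with a mean of at least 100 at both passages, 15 mitochondrial genes in purple and 1310 nuclear genes in grey. All 15 mitochondrial genes lie above the line of equal CV, with mt-Nd3 nearest to it.

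The genes also varied together. Over the 91 pairs among 14 mitochondrial mRNA and rRNA genes, the Spearman correlation of normalized counts across 45 passage 2 cells had a median of 0.72 (0.24 to 0.95) and was positive in 91. Across 22 passage 1 cells the median was 0.40 (-0.13 to 0.81), with 80 of the 91 pairs positive. The points of a pair share their library, its size factor and its depth, and neighbouring genes may share reads. The overlapping genes mt-Atp6 and mt-Atp8 correlated at 0.95 at passage 2 and 0.80 at passage 1. Values for mt-Co2 and mt-Co3, which do not overlap, were 0.94 and 0.81. Taken as shares of a cell's mitochondrial reads, mt-Atp6 and mt-Atp8 correlated at 0.50 and 0.79, and mt-Co2 and mt-Co3 at 0.21 and 0.23.

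Balance within the mitochondrial reads was measured as each gene's share of the mitochondrial reads of a cell, which needs no scaling between cells. The share of mt-Nd4 was 4.11 ± 1.06% (SD, n = 45) at passage 2 and 2.92 ± 0.648% (SD, n = 22) at passage 1. It ran from 2.01% through a median of 4.07% to 6.32% at passage 2 and from 1.67% through 2.80% to 4.10% at passage 1. The passage 2 cell was the higher in 82.1% of pairs. The share of mt-Atp6 was 14.7 ± 1.86% and 12.4 ± 2.08%, higher at passage 2 in 78.7% of pairs, and that of mt-Cytb was 14 ± 2.06% and 12.1 ± 2.55%, higher in 72.1%. Shares that were lower at passage 2 included mt-Co2, with 6.80 ± 0.879% and 7.90 ± 0.685%, where the passage 2 cell was the higher in 16.3% of pairs. The same was seen for mt-Rnr2, with 10.2 ± 2.64% and 12.1 ± 1.96% (25.9% of pairs), for mt-Co3, with 18.04 ± 2.10% and 20.01 ± 2.79% (27.7%), and for mt-Nd1, with 7.96 ± 2.18% and 9.48 ± 1.95% (29.3%). For mt-Co1 the share was 13.1 ± 2.98% at passage 2 and 12.5 ± 4.06% at passage 1, and 49.8% of pairs were higher at passage 2.

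**Figure D3:**
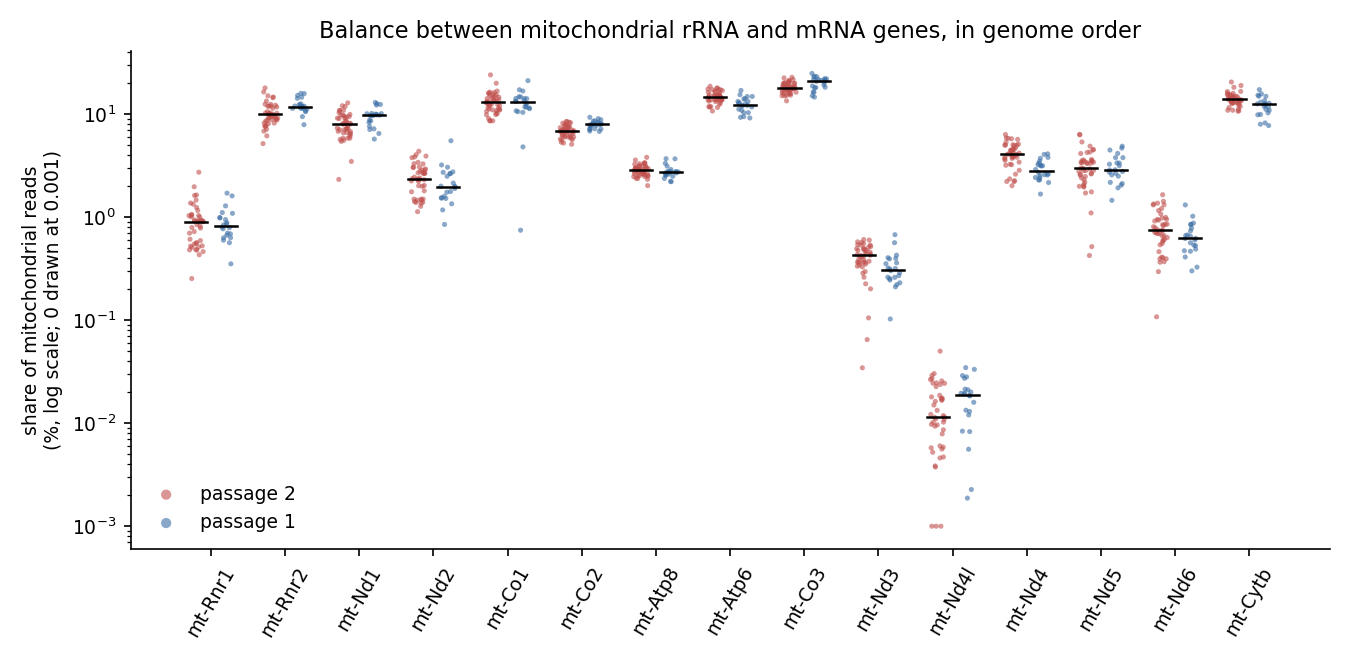
Share of a cell's mitochondrial reads in each rRNA and mRNA gene (%, log scale) in genome order, with passage 2 cells in red on the left of each pair and passage 1 cells in blue, and medians as bars. The passages overlap for each of the 15 genes, mt-Nd4 is shifted up and mt-Co2 down at passage 2, and 1 passage 1 cell lies far below all others for mt-Co1.

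Set against the SD between cells of a passage (pooled over both), the difference of medians was larger for mt-Nd4 (1.27 percentage points, SD 0.947), mt-Atp6 (2.32, SD 1.93), mt-Co2 (-1.14, SD 0.822) and mt-Co3 (-3.13, SD 2.35). For mt-Co3 the difference of means, -1.98, was smaller than that SD. The rRNAs together took 11.1 ± 2.91% of mitochondrial reads at passage 2 and 13.02 ± 2.19% at passage 1, a difference of medians of -2.10 that was within the SD of 2.70. Read as ratios within a cell, there were 23.1 ± 6.59 reads of mt-Nd4 per 100 of mt-Co3 at passage 2 and 15.02 ± 4.59 at passage 1, with 85.2% of pairs higher at passage 2. By complex, the share of mitochondrial mRNA reads in complex IV genes was 42.9 ± 3.63% at passage 2 and 46.8 ± 6.77% at passage 1. That of complex V was 19.9 ± 2.27% and 17.6 ± 2.74%, that of complex III 15.9 ± 2.15% and 14.01 ± 2.80%, and that of complex I 21.3 ± 2.51% and 21.6 ± 3.29%. These shares sum to a fixed total, so a higher share of one gene comes with lower shares of others.

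The pair mt-Atp8 and mt-Atp6 lies on 1 transcript with overlapping reading frames. Its mRNA sequence is shown because the overlap bears on how reads are divided between the genes. The sequences printed here were read from the GENCODE M21 transcripts on GRCm38, 5′ to 3′, with bases in capitals where the gene shares them with an overlapping neighbour. The mt-Atp8 gene spans chrM:7766-7969 on the plus strand, 204 bases, of which the last 43 are also the start of mt-Atp6.
mt-Atp8: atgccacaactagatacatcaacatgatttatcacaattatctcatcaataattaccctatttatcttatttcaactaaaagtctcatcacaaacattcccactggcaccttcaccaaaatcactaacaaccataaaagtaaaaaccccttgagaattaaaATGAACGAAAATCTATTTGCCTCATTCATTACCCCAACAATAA
Reads of mt-Atp8 per 100 reads of mt-Atp6 were 19.5 ± 2.40 at passage 2 (14.7 to 24.4) and 22.5 ± 2.00 at passage 1 (17.96 to 25.5), with 17.1% of pairs higher at passage 2. Whether reads in the shared 43 bases were counted for either gene is not given in the sources used here, so the level of mt-Atp8 is uncertain.

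The mRNA gene with the lowest counts was mt-Nd4l, a complex I subunit at chrM:9877-10173 on the plus strand, with 618 reads over all 67 cells. Its 297 bases are printed because a nuclear copy, the pseudogene Gm10222 on chromosome 1, is 100% identical to it over 294 bases, and reads from either cannot be told apart there. The last 7 bases are shared with mt-Nd4.
mt-Nd4l: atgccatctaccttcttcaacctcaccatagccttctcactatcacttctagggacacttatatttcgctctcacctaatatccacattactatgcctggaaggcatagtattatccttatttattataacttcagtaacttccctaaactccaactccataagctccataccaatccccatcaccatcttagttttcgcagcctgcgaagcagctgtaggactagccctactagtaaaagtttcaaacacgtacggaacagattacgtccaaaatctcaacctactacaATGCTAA
Normalized counts of mt-Nd4l averaged 7.63 ± 8.32 at passage 2 (0 to 48.1) and 8.39 ± 4.99 at passage 1 (0.737 to 19.7). Its neighbours mt-Nd3 and mt-Nd4 averaged 181 ± 85.99 and 1972 ± 1105 at passage 2, and 149 ± 69.5 and 1335 ± 406 at passage 1.

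Copies of mitochondrial DNA in the nuclear genome can take or hide reads in this way. Among GENCODE M21 genes, 16 nuclear copies matched 11 of the mitochondrial genes at 90% identity or more over at least 50% of the copy. On chromosome 1, between positions 24611535 and 24616197 (GRCm38), 7 of them lie in a row with 99.7% to 100% identity to parts of mt-Co1, mt-Co2, mt-Atp6, mt-Co3, mt-Nd3, mt-Nd4l and mt-Nd4. Of the 16, 9 had counts here, with 820 reads, or 0.0224% of the mitochondrial reads, and the other 7 were not analysed here. Those 7 include the chromosome 1 copies of mt-Co1, mt-Co2, mt-Atp6, mt-Co3, mt-Nd3 and mt-Nd4, so the 820 reads do not cover these near-identical copies. The most read of the 9 were the copies of mt-Co1 and mt-Co2 on chromosome 2, Gm13340 with 376 reads and Gm13341 with 354. Gm10222 had 2 reads. How reads with more than one match were treated is not given in the sources used here, so levels of the members with near-identical copies are uncertain to that extent.

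One passage 1 cell differed from all others in mt-Co1. In passage 1 cell 5, mt-Co1 had 507 reads, 0.746% of the mitochondrial reads (Wilson 95% interval 0.684% to 0.813%). The median of the other passage 1 cells was 13.2%, which is 17.7-fold higher, and the lowest passage 2 cell had 8.57%. The next gene along the genome, mt-Ts1, had 2 reads in this cell against a median of 302 in the other passage 1 cells. Its mitochondrial share of reads was 5.43%, near the passage 1 median. With mt-Co1 and mt-Ts1 left out of the total, each of its 14 other mRNA and rRNA genes lay within the range of the other passage 1 cells. The run of tRNA genes just before mt-Co1, mt-Tw to mt-Ty, was also low in this cell. It held 2 reads there, the lowest passage 1 count, against a median of 37 over the passage 1 cells. The nuclear copy Gm13340 had 0 reads in it and a median of 9 in the others. Passage 1 cell 10, the cell with the highest mitochondrial share at passage 1, was second lowest, with 4.798% for mt-Co1 and 0.157% for mt-Ts1, and the third lowest passage 1 cell had 10.4% for mt-Co1. These cells were singled out after their values were seen. Without cell 5 the CV of mt-Co1 at passage 1 was 32.5%, against 39.01% with it, and its log2 ratio was 0.06, against 0.13.

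**Figure D4:**
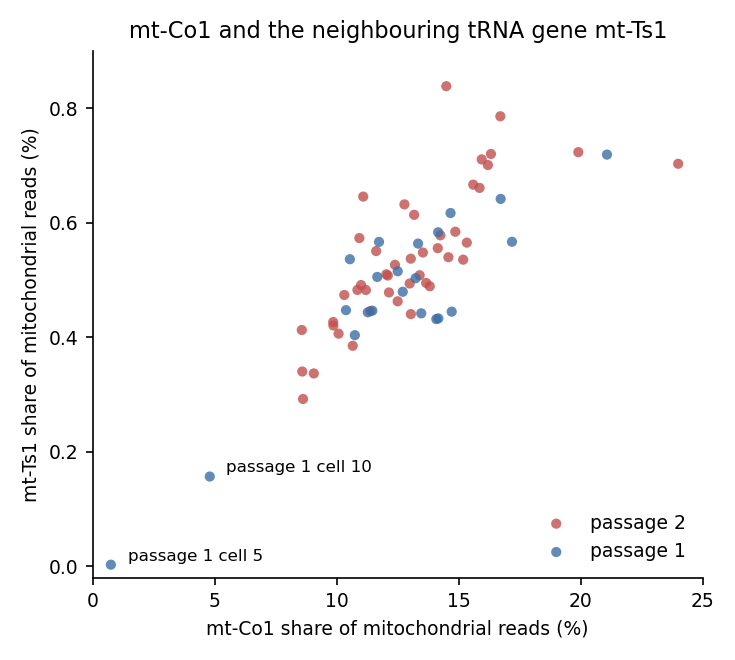
Share of a cell's mitochondrial reads in mt-Ts1 (vertical, %) against that in mt-Co1 (horizontal, %), 1 point per cell, passage 2 in red and passage 1 in blue. Passage 1 cell 5 (0.746% mt-Co1) and cell 10 (4.798%) lie below the lowest of the passage 2 cells (8.57%) on the horizontal axis, and mt-Ts1 is low in both.

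The tRNA genes took 22524 reads in all, of which mt-Ts1, encoding a serine tRNA, held 83.2%. It lies at chrM:6870-6938 on the minus strand, against the end of mt-Co1, with which it shares 3 bases. Its sequence is printed with those of the cluster below to show how short these genes are.
mt-Ts1: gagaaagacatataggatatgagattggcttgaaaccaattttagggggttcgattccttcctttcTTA
Reads of mt-Ts1 per 100 reads of mt-Co1 were 4.16 ± 0.582 at passage 2 and 3.68 ± 0.920 at passage 1. Normalized counts of mt-Ts1 correlated with those of mt-Co1 at 0.94 over 45 passage 2 cells and 0.90 over 22 passage 1 cells. Their shares of mitochondrial reads correlated at 0.82 and 0.57. Strand was not stated for the counting, so reads that run on from mt-Co1 cannot be told apart from reads of mt-Ts1. In the same way mt-Nd6 shares 14 bases with mt-Nd5 on the other strand. Their counts correlated at 0.89 and 0.76, and their shares of mitochondrial reads at 0.68 and 0.68.

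Besides mt-Ts1, the 7 tRNA genes on the minus strand held 231 to 750 reads each and 2847 in all, and the 14 on the plus strand held 0 to 319 each and 930 in all. Within these, mt-Tr had 0 reads in all 67 cells, which allows up to 0.0819 per 100000 mitochondrial reads. The glutamate tRNA gene mt-Te had 10.9 ± 12.97 normalized counts at passage 2 and 7.03 ± 6.13 at passage 1, a log2 ratio of 0.57. It was read in 40 of 45 and 22 of 22 cells.

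**Figure D5:**
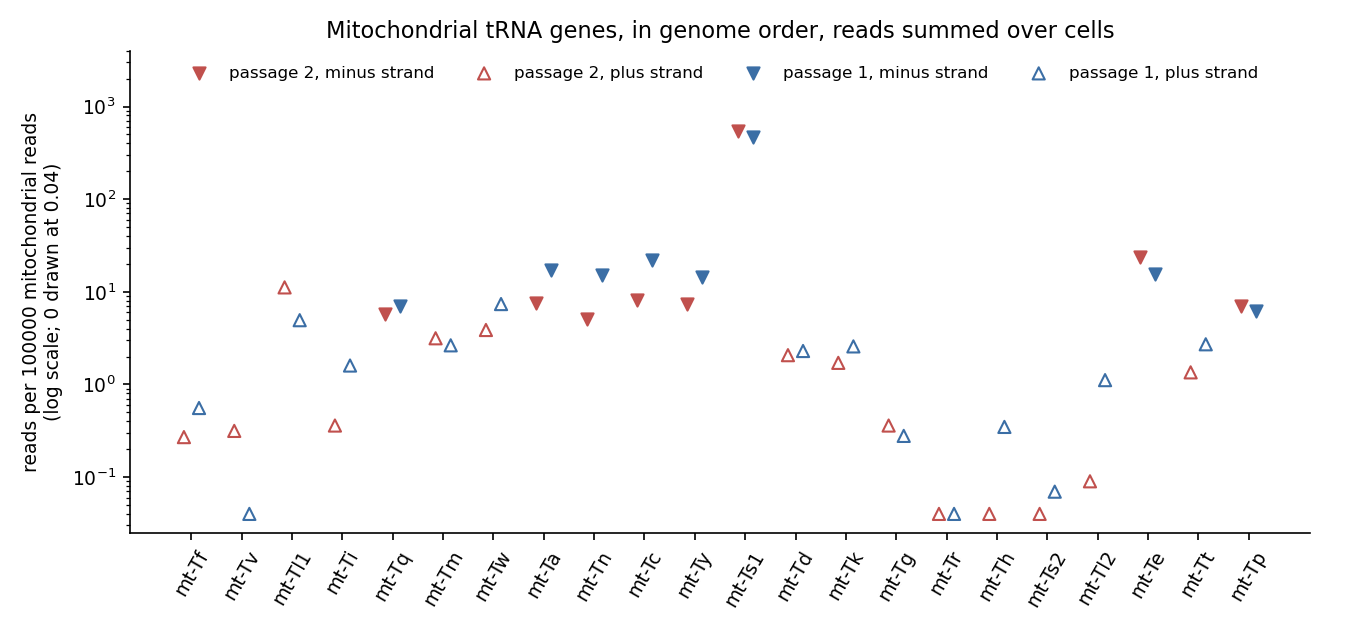
Reads of each of the 22 tRNA genes per 100000 mitochondrial reads (log scale), summed over the cells of a passage and drawn in genome order, passage 2 in red and passage 1 in blue, minus strand filled and plus strand open. The 5 genes mt-Tw to mt-Ty are lower at passage 2, mt-Ts1 stands far above the rest, and mt-Tr is at 0 in both.

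A run of 5 neighbouring tRNA genes between mt-Nd2 and mt-Co1 had fewer reads relative to the mitochondrial total at passage 2, a group noticed after the values were seen. They encode the tRNAs for tryptophan, alanine, asparagine, cysteine and tyrosine. The light-strand origin of replication lies between mt-Tn and mt-Tc. In genome order they are mt-Tw (chrM:4950-5016, plus strand), mt-Ta (chrM:5018-5086), mt-Tn (chrM:5089-5159), mt-Tc (chrM:5192-5257) and mt-Ty (chrM:5260-5326), the last 4 on the minus strand. The first 2 bases of mt-Tw are also the last of mt-Nd2.
mt-Tw: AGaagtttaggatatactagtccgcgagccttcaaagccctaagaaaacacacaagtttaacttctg
mt-Ta: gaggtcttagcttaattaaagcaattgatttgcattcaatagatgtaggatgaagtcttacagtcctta
mt-Tn: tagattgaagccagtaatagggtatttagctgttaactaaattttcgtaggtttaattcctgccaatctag
mt-Tc: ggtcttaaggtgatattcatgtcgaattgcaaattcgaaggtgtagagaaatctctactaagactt
mt-Ty: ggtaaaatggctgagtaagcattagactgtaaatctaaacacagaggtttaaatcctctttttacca
Together they had 716 reads in the 45 passage 2 cells and 1095 reads in the 22 passage 1 cells. Per 100000 mitochondrial reads of a cell this was 27.2 ± 39.4 at passage 2, with a median of 10.5 and a range of 0 to 174. At passage 1 it was 74.5 ± 63.7, with a median of 65.3 and a range of 2.94 to 238. The value of 2.94 was that of passage 1 cell 5, the cell with low mt-Co1. The ranges overlapped, and the passage 2 cell was the higher in 25.4% of pairs. No read of the group was found in 6 of 45 passage 2 cells and in 0 of 22 passage 1 cells.

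With every cell thinned to 500000 reads, mt-Ty was read in 27 of 45 passage 2 and 20 of 22 passage 1 cells, and mt-Tn in 13 of 45 and 16 of 22. Before thinning the counts of cells were 34 of 45 and 22 of 22 for mt-Ty, and 20 of 45 and 20 of 22 for mt-Tn. Single cells weighed heavily: the 3 highest cells held 45.5% of the group's reads at passage 2 and 36.4% at passage 1. Across cells the group's reads per 100000 mitochondrial reads correlated with the number of genes detected at 0.23 at passage 2 and 0.50 at passage 1, and that number was 7257 in the median passage 2 cell and 8477.5 in the median passage 1 cell. The part of it in the difference was not tested. The leucine tRNA gene mt-Tl1, between mt-Rnr2 and mt-Nd1, had 11.2 reads per 100000 mitochondrial reads at passage 2 and 4.94 at passage 1.

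The nuclear partners of the mitochondrial genome were described with the same filter and ratio. Of 85 nuclear respiratory chain genes, 76 were measured, 38 with a log2 ratio above 0 and 38 below, with a median of 0.01. Of 77 genes of mitochondrial ribosomal proteins, 71 were measured, 27 above 0 and 44 below, with a median of -0.34. For comparison, 75 cytosolic ribosomal protein genes had a median of -0.04, 14 glycolytic genes one of -0.64 and all measured genes one of -0.11.

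A list of 42 genes held 6 regulators of nuclear partners beside genes that copy, transcribe, process or translate the mitochondrial genome. Of the regulators 3 were measured, 2 with a ratio above 0 and 1 below. Of all 42 genes, 31 were measured, 12 with a ratio above 0 and 19 below, with a median of -0.38. The sign of that median turned with a stricter filter (a mean of at least 50), where it was 0.29. At least 2-fold higher at passage 2 were 3 of the 31, where 14.4% of all genes measured were, and at least 2-fold lower were 9, where 19.4% of all genes were. The filter itself favours such ratios, since 7 genes passed it through their passage 1 level only and 3 through their passage 2 level only, and 6 of the 9 lower genes were among those 7. The 21 genes that passed in both passages had 9 ratios above 0 and 12 below, with a median of -0.21, and 2 were at least 2-fold higher and 3 at least 2-fold lower. Of these 21, 8 act in RNA processing and stability, with 3 ratios above 0 and 5 below. The translation factor gene Gfm1 had the highest mean, 174 ± 152 normalized counts at passage 2 (1.72 to 747, median 137) and 111 ± 73.1 at passage 1 (24.8 to 304, median 90.9), a log2 ratio of 0.65. The mitochondrial transcription and packaging factor Tfam averaged 53.7 ± 92.7 and 21.2 ± 30.6, a log2 ratio of 1.30, but the passage 2 cell was the higher in 52.4% of pairs. Likewise the RNA-binding gene Grsf1 had a log2 ratio of 1.70 with 71.6 ± 158 at passage 2 and 21.4 ± 34.4 at passage 1, and medians of 3.06 and 4.49. It reached a count of 10 in 17 of 45 and 9 of 22 cells.

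Elac2, which cuts the 3′ ends of tRNAs out of precursors, averaged 10.2 ± 26.1 at passage 2 and 4.57 ± 9.26 at passage 1, a log2 ratio of 1.01, and passed the filter through passage 2 only. Hsd17b10, a subunit of the RNase P that cuts their 5′ ends, averaged 78.8 ± 84.2 at passage 2 and 64.5 ± 50.8 at passage 1, a log2 ratio of 0.29. Slirp, which stabilises mitochondrial mRNAs, averaged 53.1 ± 44.1 and 61.7 ± 41.5, a log2 ratio of -0.21. The lowest ratios were those of the exonuclease gene Mgme1 (-3.58), Fastkd2 (-2.21) and the polynucleotide phosphorylase gene Pnpt1 (-2.04). Mgme1 had means of 0.775 at passage 2 and 20.2 at passage 1 and passed the filter through passage 1 only. Its median was 0 at both passages, and it reached a count of 10 in 1 of 45 and 5 of 22 cells. Fastkd2 had means of 11.4 and 56.2 and medians of 0 and 3.83. Pnpt1 averaged 21.4 ± 46.6 at passage 2 with a median of 0, and 90.7 ± 135 at passage 1 with a median of 19.7. For Tfam, Grsf1, Elac2, Mgme1, Fastkd2 and Pnpt1 the SD exceeded the mean at both passages, and each was at 0 in some cells.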

How the data were processed

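Gene expression was measured by RNA sequencing of 67 single cells, 1 library per cell. Per the labels' protocols, single cells went through a C1 system and were turned into dual-indexed Nextera XT libraries. Per the submitters' processing notes, which give no versions, the tools were DESeq, HTSeq, SAMtools and BWA and the genome was GRCm38. The deposited signal values are gene counts divided by 1 DESeq size factor per cell. Strand and the treatment of reads with several matches are not given in the sources used here.

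Read counts were rebuilt from the smallest step of each cell's column. All 509576 values above 0 (100%) came out whole to within 0.001. Each share is reads of the 37 rows over all reads of the cell. Symbols, coordinates and sequences come from GENCODE M21, and 37607 of 39179 rows had a symbol. A count test was not run, because each passage is 1 sample. A list was compared with all 8682 genes by counts and medians. Nuclear copies were found by aligning mitochondrial transcripts to all transcripts. No doublet caller was run on 67 cells, and no cell was left out. Ratios and CVs were checked on simulated data, and shares on passage 2 cells 1 and 2 thinned to 500000 reads. The simulation gave every gene the same spread between cells and changed only genes with a mean of at least 50. Its CV was checked at passage 2 only, so genes with other spreads or lower levels were not covered. Work was done in R 4.3.3 with edgeR 4.0.16 (TMM factors only) and in Python 3.11.15 with pandas 2.3.3, numpy 2.4.6 and scipy 1.17.1. Named nuclear genes are the 4 highest means, 3 highest and 3 lowest ratios of their list. Alternatives varied the pseudocount, scaling, filter, summary over cells, depth and cells used. The members, lists and alternatives were chosen with earlier results of these data known.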

Additional observations from a re-analysis of the deposited data

How the results depend on the processing

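No paired analysis was possible because the numbers of the cells only name them and pair no passage 2 with a passage 1 cell. Without cells that had a proliferation marker, which left 35 passage 2 and 6 passage 1 cells, the CV of the mitochondrial share at passage 1 was 11%, with fewer cells in the value (the cause was not tested). Leaving out each cell in turn, it lay between 13.5% (without passage 1 cell 10) and 15.4%, and that at passage 2 between 33.99% (without passage 2 cell 11) and 38.6%. The difference of median shares kept its sign, between -0.69 and -0.11 percentage points over 7 alternatives and between -0.43 and -0.35 with single cells left out. The number of passage 2 cells outside the passage 1 range was 16 to 24, and 24 without passage 1 cell 6. The median log2 ratio of the mitochondrial genes was 0.12 to 0.21 with single cells left out, 0.02 by medians over cells, 0.03 without the 25% of cells with the fewest genes, 0.08 in CPM of all reads, 0.10 without cells with endothelial markers and 0.31 with TMM scaling, which moved the median of all genes from -0.11 to -0.00. Relative to that median it was 0.30 as reported, 0.31 with TMM, 0.61 by medians, 0.17 without the cells with the fewest genes, 0.19 without those with endothelial markers, 0.26 in CPM and -0.07 in the absence of a filter (36 genes), where its sign turned. Of the 16 genes, 9 were higher at passage 2 by medians and 9 by means of log2 values. Single genes changed sign in 5 of 13 alternatives for mt-Nd5, 2 each for mt-Co1, mt-Atp8 and mt-Rnr1, and 1 for mt-Co3. The median of the list of mitochondrial genome expression was -0.49 to -0.29 with single cells left out and 0.29 with the stricter filter (mean of at least 50). The differences for rRNA, mt-Nd4, mt-Atp6, mt-Co2, mt-Co3 and the 5 tRNA genes, alternatives chosen after seeing the data for all but rRNA, kept their signs, with -2.20 to -1.72, 0.85 to 1.40, 2.17 to 2.77, -1.24 to -1.05 and -3.63 to -1.98 percentage points, and -61.7 to -47.3 reads per 100000. Low tRNA genes rest on few reads per cell, and with 1 sample per passage no difference can be separated from differences between cultures. Library names also carry a different prefix at each passage. What the prefix marks is not stated, and it cannot be told apart from passage.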

Other observations

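Passage 2 cell 15, singled out after its values were seen, had the highest mt-Co1 share of mitochondrial reads over all 67 cells, 24.0%. Among the 45 passage 2 cells it also had the lowest shares of mt-Nd1 (2.32%), mt-Nd3 (0.0344%), mt-Atp6 (10.7%) and mt-Cytb (10.7%). Its library had the most reads of passage 2, 1509589, with 4754 genes detected, against a passage 2 median of 7257. Its mitochondrial share of reads was 8.47%, below those of cells 11 and 37 alone. Passage 2 cell 13 came second in mt-Co1 at passage 2, with 19.9%, and its shares of mt-Nd1 (3.47%) and mt-Nd3 (0.105%) were below the passage 2 medians of 7.98% and 0.424%. It had 4163 genes detected, the fewest of the passage 2 cells. Cells 13 and 15 both had a proliferation marker.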
